A study of Mus musculus with 9 samples.

Results

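The TGF-beta system of the liver was followed through the genes for its 3 ligands, Tgfb1, Tgfb2 and Tgfb3, for the 4 latent TGF-beta binding proteins, Ltbp1, Ltbp2, Ltbp3 and Ltbp4, and for 3 integrin subunits of the receptors that release the ligands, Itgav, Itgb6 and Itgb8. All rows of the gene table with 1 of these 10 symbols were taken, which gave 11 of 34745 rows. Gene expression had been measured by RNA sequencing of livers from C57BL/6 mice in 3 groups of 3 libraries. In the sulodexide group, mice drank water with thioacetamide (TAA, 400 mg/L) for 16 weeks and were given daily sulodexide over the last 4 weeks, from week 13 on. Sulodexide is a mixture of glycosaminoglycans, mostly fast-moving heparin with some dermatan sulfate. The vehicle group had the same TAA water and the vehicle of the drug over the same weeks. The control group is labelled as control, and it is not stated whether these mice were given vehicle. TAA is turned by hepatocytes into toxic products, and prolonged dosing is a standard way to produce liver fibrosis in mice and rats. The dose of sulodexide, the sex and the age of the mice are not given in the labels.

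TGF-beta is secreted in a latent form, in which the cleaved propeptide stays wrapped around the ligand. A latent TGF-beta binding protein is joined to that propeptide by disulfide bonds and ties the complex to fibrillin and fibronectin fibres of the matrix. The integrins alpha-v beta-6, of epithelial cells, and alpha-v beta-8 bind an RGD motif in the propeptides of TGF-beta 1 and TGF-beta 3 and free or expose the ligand. The freed ligand binds receptors that phosphorylate SMAD proteins, and in liver fibrosis it is known as a main driver of collagen production by hepatic stellate cells.

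Counts assigned to genes totalled between 15031275 and 16655951 in the sulodexide libraries, between 14386196 and 15959865 in the vehicle libraries and between 13803697 and 14974495 in the control libraries. Of all rows, 13701 had enough counts to be tested, among them 1 row for each of the 10 symbols. Nothing in the labels states that the 3 libraries of a group come from different mice. The p-values therefore measure only how far these libraries spread. The unit of a level is CPM, read counts scaled to a common library total. Where genes are compared with each other it is the deposited FPKM, which also divides by gene length. A gene is said to have risen or fallen where the adjusted p of edgeR's quasi-likelihood test, with Benjamini-Hochberg adjustment over all tested genes, was below 0.05. The liver label was checked with 7 hepatocyte markers, all of them present in every group. Of these, 4 fell with vehicle against control, namely Apoa1 (log2 -1.67), Cps1 (-1.12), Serpina1a (-0.92) and Asgr1 (-0.57), and the same 4 fell with sulodexide against control (log2 -1.43, -0.75, -0.69 and -0.45 in that order). Scaled by total counts, 3 fell and 2 rose with vehicle against control, and 3 fell with sulodexide against control.

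The ligand, binder and integrin genes, 9 of the 10, were higher in TAA livers with vehicle than in control livers, and most of them were lower in TAA livers with sulodexide than in those with vehicle. With vehicle against control, 9 of 10 genes rose and 0 fell, where 23.1% of all tested genes rose and 20.4% fell, 43.4% in all. Their median log2 change was 2.21, against 0.01 over all tested genes. With sulodexide against vehicle, 8 of 10 fell and 0 rose, where 3.41% of all tested genes fell and 1.39% rose, 4.8% in all, and the median was -1.99, against 0.02 over all. With sulodexide against control, 2 of 10 rose and 0 fell, where 11.2% of all tested genes rose and 11.4% fell, 22.6% in all, and the median was 0.68, against 0.02 over all. Beside these counts of 0 stand 0 genes at an unadjusted p below 0.05 in that direction, and 0 by DESeq2 or limma. The 3 comparisons share libraries and are not independent of each other. RNA of whole liver was measured, so fewer cells of a type and less RNA per cell cannot be told apart. Itgb6 passed the filter on low counts through its vehicle libraries alone, so that it could only be tested because it was higher there. Tgfb2 and Itgb8 also reached the minimum of 3 libraries only with the help of the vehicle group, as 2 sulodexide and 0 control libraries of Tgfb2 and 0 sulodexide and 2 control libraries of Itgb8 were over the limit of 0.665 CPM.

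These counts moved with single libraries. Vehicle library 2 was the lowest of its group for 8 of the 10 genes, against 35.2% of all tested genes, and vehicle library 3 was the highest for 7, against 33.1%. Without vehicle library 3, 2 of the 10 genes fell with sulodexide. Without sulodexide library 2, 3 fell, and without vehicle library 1, 5 fell. Tgfb3 and Ltbp2 fell with sulodexide against vehicle in all 18 alternative fits that were run. Over all tested genes, 467 fell, and between 95 and 670 did so when 1 library was left out. For vehicle against control, between 7 and 9 of the genes rose when a library was left out.

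**Figure D1:**
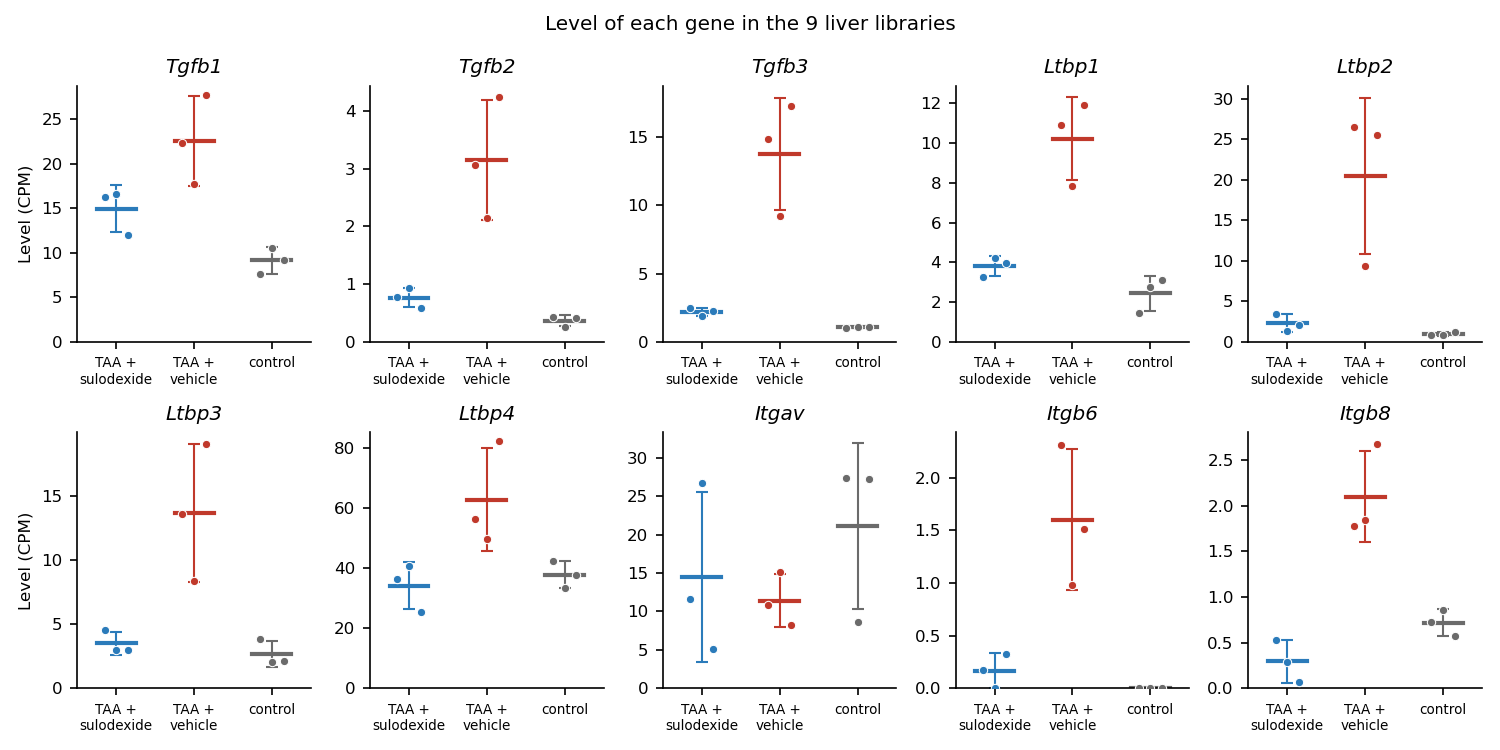
Level of each of the 10 genes in CPM, on a linear axis from 0 that has its own scale for each gene, in the 3 TAA with sulodexide, 3 TAA with vehicle and 3 control libraries. Each point is a library, each thick bar the group mean and each thin bar the SD. The vehicle points lie above all control points for 9 of the genes, and Itgav is the exception.

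The 3 ligands are made as separate genes and act through the same receptors. Tgfb1, the ligand most studied in fibrosis (ENSMUSG00000002603, GRCm38 chromosome 7, 25687002 to 25705077), stood at 16.3, 16.7 and 12.0 CPM in the sulodexide libraries, at 22.4, 17.7 and 27.7 CPM in the vehicle libraries and at 7.63, 10.6 and 9.23 CPM in the control libraries. Every sulodexide value lay between the ranges of the other two groups. Tgfb1 was 2.47-fold higher with vehicle than in control (adjusted p = 0.000523, edgeR) and 1.64-fold higher with sulodexide than in control (adjusted p = 0.0284, edgeR). Between sulodexide and vehicle the log2 difference was -0.59 (95% interval -1.02 to -0.16, SE 0.20) and did not pass (adjusted p = 0.117, edgeR). Scaling by total counts, which shifts the median of all tested genes by -0.14 in that comparison, gave -0.73 with an adjusted p of 0.0489 by edgeR. The rise of Tgfb1 with sulodexide over control did not pass without sulodexide library 1 or 2 or control library 1 or 3 (adjusted p by edgeR from 0.0783 to 0.108).

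Tgfb2 (ENSMUSG00000039239, chromosome 1, 186622792 to 186705989), whose propeptide lacks the RGD motif that the integrins bind, was the scarcest ligand. It had 0.770, 0.928 and 0.592 CPM with sulodexide, 3.06, 2.15 and 4.24 CPM with vehicle and 0.436, 0.258 and 0.408 CPM in control, where the counts per library were 13, 16 and 9 with sulodexide, 57, 35 and 73 with vehicle and 6, 3 and 5 in control. No 2 of the groups overlapped. Tgfb2 was 4.08-fold lower with sulodexide than with vehicle (log2 -2.03, SE 0.36, adjusted p = 0.0143, edgeR) and 8.35-fold higher with vehicle than in control (log2 3.06, SE 0.41, adjusted p = 0.000208, edgeR). Leaving out vehicle library 3 raised the adjusted p of this fall to 0.0659 by edgeR. Sulodexide livers were not separated from control by the test (log2 1.03, 95% interval 0.03 to 2.03, adjusted p = 0.125, edgeR).

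Tgfb3 (ENSMUSG00000021253, chromosome 12, 86056744 to 86079041) had the largest fitted change of the 3 ligands, both with sulodexide against vehicle and with vehicle against control. The values were 2.49, 1.91 and 2.24 CPM with sulodexide, 14.8, 9.21 and 17.2 CPM with vehicle and 1.02, 1.12 and 1.06 CPM in control. The lowest vehicle library was well above the highest sulodexide library, and that group in turn lay above control. Tgfb3 was 6.21-fold lower with sulodexide than with vehicle (log2 -2.63, SE 0.25, adjusted p = 0.00302, edgeR), ranking 2 by p among all tested genes. With vehicle it was 12.8-fold higher than in control (log2 3.68, SE 0.28, adjusted p = 6.79e-06, edgeR), and with sulodexide it was 2.07-fold higher than in control (log2 1.05, adjusted p = 0.0284, edgeR). The last difference did not pass in 6 of 18 alternatives, among them all 3 that left out a control library (adjusted p by edgeR from 0.0705 to 0.0848). The span of Tgfb3 overlaps that of Ttll5 on the opposite strand, and the genes share 0 bases of exon.

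The make-up of the ligand pool differed between the groups. The FPKM of the 3 ligands summed to 3.46 ± 0.522 with sulodexide, 9.44 ± 2.30 with vehicle and 1.68 ± 0.165 in control (SD, n = 3 each). Tgfb3 held 20.0%, 15.8% and 23.4% of that sum in the sulodexide libraries, 50.8%, 44.9% and 48.9% in the vehicle libraries and 17.8%, 14.9% and 15.9% in the control libraries. In vehicle livers Tgfb3 was thus close to the level of Tgfb1, which held 47.7 ± 3.05% there, against 77.8 ± 3.54% with sulodexide and 81.6 ± 2.24% in control. The log2 ratio of Tgfb3 to Tgfb1 within a library averaged -1.98 with sulodexide, 0.01 with vehicle and -2.29 in control. Both differences from vehicle had a 2-sided exact permutation p of 0.1, the smallest that 3 against 3 libraries can give, and 0.18 after adjustment over 27 such tests. The ratio of Tgfb2 to Tgfb1 was 1.31 lower with sulodexide than with vehicle on the log2 scale, and 1.45 higher with vehicle than in control, with the same exact permutation p of 0.1 for each. With exon lengths of GENCODE M21, a choice made after seeing the data, Tgfb3 held 17.7% with sulodexide, 44.4% with vehicle and 14.5% in control.

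**Figure D2:**
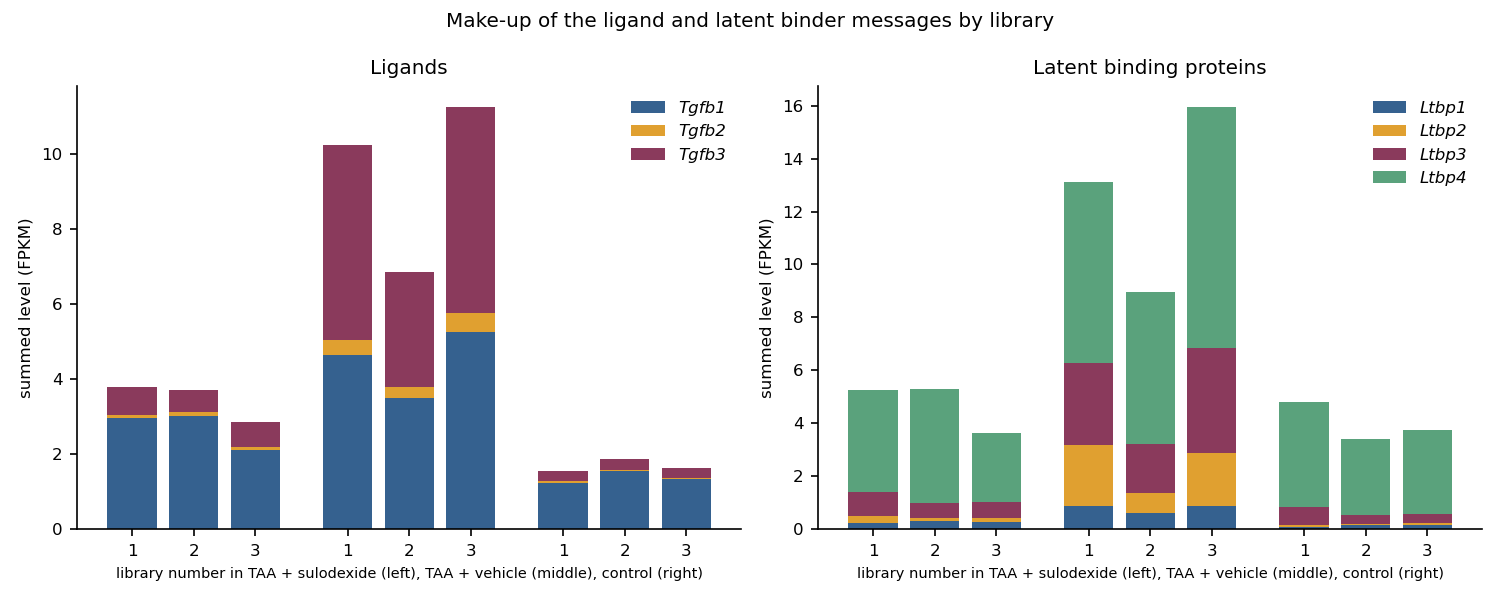
Summed FPKM of the 3 ligand genes and of the 4 binder genes, with a stacked bar for each library, sulodexide first, then vehicle and control, and a colour for each gene. Tgfb3 takes 44.9% to 50.8% of the ligand sum in vehicle libraries and at most 23.4% in the others.

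Latent TGF-beta binding proteins are large secreted proteins built of EGF-like repeats. LTBP-1, LTBP-3 and LTBP-4 can carry a latent ligand, whereas LTBP-2 is not known to bind one and is found on elastic fibres. Ltbp1 (ENSMUSG00000001870, chromosome 17, 75005568 to 75392512) had 3.26, 4.24 and 3.95 CPM with sulodexide, 10.9, 7.86 and 11.9 CPM with vehicle and 1.45, 2.76 and 3.10 CPM in control. Each sulodexide library was below each vehicle library and above each control library. It was 2.68-fold lower with sulodexide than with vehicle (log2 -1.42, SE 0.27, adjusted p = 0.0164, edgeR) and 4.22-fold higher with vehicle than in control (adjusted p = 0.000232, edgeR). The fall did not pass without sulodexide library 2, vehicle library 1 or vehicle library 3 (adjusted p by edgeR from 0.0578 to 0.0700). Over control, Ltbp1 with sulodexide did not pass (log2 0.65, 95% interval 0.01 to 1.295, adjusted p = 0.129, edgeR), whereas scaling by total counts gave 0.92 with an adjusted p of 0.0291 by edgeR.

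Ltbp2 (ENSMUSG00000002020, chromosome 12, 84783212 to 84876532) had 3.49, 1.39 and 2.11 CPM with sulodexide, 26.6, 9.40 and 25.5 CPM with vehicle and 0.800, 0.861 and 1.22 CPM in control. Vehicle library 2 held less than either other vehicle library, yet more than any sulodexide library. It was 8.77-fold lower with sulodexide than with vehicle (log2 -3.13, SE 0.43, adjusted p = 0.0087, edgeR) and 21.2-fold higher with vehicle than in control (log2 4.41, SE 0.49, adjusted p = 0.000109, edgeR). Compared with control, Ltbp2 with sulodexide stood at a log2 difference of 1.27 that did not pass (95% interval 0.09 to 2.46, adjusted p = 0.112, edgeR), while it passed in 4 of 18 alternatives, among them DESeq2 (adjusted p = 0.0400), scaling by total counts (edgeR adjusted p = 0.0495) and the fit without vehicle library 2 (edgeR adjusted p = 0.0279).

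Ltbp3 (ENSMUSG00000024940, chromosome 19, 5740904 to 5758532) had 4.56, 2.96 and 3.03 CPM with sulodexide, 13.6, 8.35 and 19.1 CPM with vehicle and 3.85, 2.07 and 2.12 CPM in control. The sulodexide and control libraries overlapped and all vehicle libraries were above both. It was 3.88-fold lower with sulodexide than with vehicle (log2 -1.96, SE 0.34, adjusted p = 0.0127, edgeR) and 5.06-fold higher with vehicle than in control (adjusted p = 0.000426, edgeR). The fall did not pass without sulodexide library 2 (adjusted p = 0.0616, edgeR) or vehicle library 3 (adjusted p = 0.0509, edgeR). With sulodexide the level was not separated from control (log2 0.38, 95% interval -0.42 to 1.18, adjusted p = 0.483, edgeR).

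Ltbp4 (ENSMUSG00000040488, chromosome 7, 27305136 to 27337692), which binds latent TGF-beta 1 and elastic fibres, was the most abundant binder. It had 36.4, 40.7 and 25.3 CPM with sulodexide, 56.3, 49.7 and 82.2 CPM with vehicle and 42.4, 33.4 and 37.6 CPM in control. The sulodexide and control libraries overlapped. It was 1.84-fold lower with sulodexide than with vehicle (log2 -0.88, SE 0.21, adjusted p = 0.0432, edgeR) and 1.66-fold higher with vehicle than in control (adjusted p = 0.0178, edgeR). The fall did not pass in 10 of 18 alternatives (adjusted p by edgeR up to 0.137), and the rise did not pass without vehicle library 3 or control library 2 or 3. A second row carries the symbol Ltbp4 (ENSMUSG00000108715), with 26 counts in vehicle library 2 and 0 in every other library, and it was not tested.

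The 4 binders summed to 4.73 ± 0.947 FPKM with sulodexide, 12.7 ± 3.51 FPKM with vehicle and 3.99 ± 0.729 FPKM in control (SD, n = 3 each). Ltbp4 held 75.6% of the sum with sulodexide, 57.8% with vehicle and 83.8% in control, and Ltbp2 held 3.78%, 13.0% and 1.55% in the same groups. The share of Ltbp3 was 14.9% with sulodexide, 23.0% with vehicle and 11.0% in control. It was 6.24%, 10.1% and 4.48% in those groups with the exon lengths of GENCODE M21, as the length behind the deposited FPKM of Ltbp3 was 5190 bases and its exons cover 9069 bases. With the GENCODE lengths Ltbp4 held 83.3%, 66.7% and 90.1%, and Ltbp2 held 4.62%, 16.6% and 1.83%. Ltbp2 then held more than Ltbp3 with vehicle, the reverse of the order by deposited FPKM. The log2 ratio of Ltbp2 to Ltbp1 was 1.64 lower with sulodexide than with vehicle and 2.05 higher with vehicle than in control (exact permutation p = 0.1 for each, the smallest possible).

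Promoters are shown for 4 of the genes that fell with sulodexide, 1 ligand and 3 binders with sequences of both roles to compare, and the 4 were picked after their values and motifs were seen. RefSeq promoter records on GRCm38.p6, from 250 bases before to 50 bases after a start, were found for 9 of the 10 symbols, in 13 records, and not for Tgfb3. The motifs were CAGAC, the SMAD box, TGANTCA, an AP-1 site, TGACGTCA, a cAMP response element, and GGAATG, a TEAD site, on both strands. Capitals mark each match, and GTCTG is CAGAC on the other strand. The stretches run 5′ to 3′ on the gene's strand, from 250 bases before the start to 10 after it. They are Tgfb2 at chr1:186705980-186706239 (minus strand), Ltbp1 at chr17:75005279-75005538 (plus strand), Ltbp2 at chr12:84876482-84876741 (minus strand) and Ltbp3 at chr19:5740650-5740909 (plus strand).
Tgfb2: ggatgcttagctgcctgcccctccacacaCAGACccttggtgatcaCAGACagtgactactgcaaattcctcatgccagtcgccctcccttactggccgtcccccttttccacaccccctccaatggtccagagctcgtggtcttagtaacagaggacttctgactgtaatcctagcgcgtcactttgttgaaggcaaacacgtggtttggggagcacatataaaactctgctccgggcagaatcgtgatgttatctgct
Ltbp1: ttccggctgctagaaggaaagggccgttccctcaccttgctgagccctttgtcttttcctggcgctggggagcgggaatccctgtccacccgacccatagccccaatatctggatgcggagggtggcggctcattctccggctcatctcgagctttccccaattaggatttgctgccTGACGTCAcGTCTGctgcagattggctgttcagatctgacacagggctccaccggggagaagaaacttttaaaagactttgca
Ltbp2: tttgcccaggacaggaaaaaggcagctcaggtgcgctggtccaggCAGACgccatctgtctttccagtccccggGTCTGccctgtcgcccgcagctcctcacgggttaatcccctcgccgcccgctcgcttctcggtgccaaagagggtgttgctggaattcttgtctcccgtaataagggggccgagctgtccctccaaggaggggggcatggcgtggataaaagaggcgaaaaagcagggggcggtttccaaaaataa
Ltbp3: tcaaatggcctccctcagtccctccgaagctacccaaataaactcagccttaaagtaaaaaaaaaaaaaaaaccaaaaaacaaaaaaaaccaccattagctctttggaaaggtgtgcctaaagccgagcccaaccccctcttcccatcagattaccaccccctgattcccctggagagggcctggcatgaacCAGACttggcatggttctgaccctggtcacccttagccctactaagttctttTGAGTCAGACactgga
CAGAC was present in 7 of the 13 records, of 6 of the 9 genes, and in 49.6% of 32851 RefSeq promoter windows of the same length. The Tgfb2 window held it 221 and 204 bases before the start, and the Ltbp2 window held it 205 and 176 bases before the start and once more 28 bases after it, outside the stretch shown. A window of Itgb6 and the window of Itgb8, which fell as well, held it 147 and 196 bases before their starts, and the second Ltbp1 record held it at 148 and 97, and these 3 are not shown. No record of Ltbp4, which also fell, held CAGAC. Neither did the other Itgb6 record or the records of Tgfb1 and Itgav. The Ltbp1 window held the cAMP response element 73 bases before the start, a motif in 1.79% of all windows, with CAGAC at 64. In the Ltbp3 window the AP-1 site, found in 7.81% of all windows, began 6 bases before the start and overlapped a CAGAC that began 1 base before it, with another at 58. GGAATG was in 0 of the 13 records and in 14.7% of all windows. These matches describe letters and not binding.

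Among the integrin subunits, Itgav, the alpha-v chain shared by the activating integrins, differed from the other genes. Itgav (ENSMUSG00000027087, chromosome 2, 83724397 to 83806916) had 11.6, 26.7 and 5.07 CPM with sulodexide, 10.8, 15.1 and 8.24 CPM with vehicle and 27.3, 8.61 and 27.3 CPM in control. All 3 groups overlapped, and the range inside the sulodexide and control groups was wider than any difference between group means. The log2 difference was 0.35 between sulodexide and vehicle (95% interval -1.14 to 1.84, adjusted p = 0.815, edgeR), -0.89 between vehicle and control (95% interval -2.38 to 0.60, adjusted p = 0.297, edgeR) and -0.54 between sulodexide and control (95% interval -2.02 to 0.93, adjusted p = 0.582, edgeR). The pooled within-group SD of its log2 CPM was 0.91, and 1.11% of the 9654 tested genes with a mean of at least 5 CPM had as large a value, against a median of 0.20 over those genes.

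Itgb6 (ENSMUSG00000026971, chromosome 2, 60598292 to 60722643) encodes the beta-6 chain, an epithelial subunit known in liver from bile duct cells. Its counts were 3, 0 and 5 with sulodexide, 43, 16 and 26 with vehicle and 0, 0 and 0 in control. The 3 control libraries thus had no read, which allows a level of up to about 0.2 CPM per library at the limit of 3 counts. Itgb6 was at least 20.5-fold higher with vehicle than in control, with 85 counts against 0 and a floor of 3 counts over the group (adjusted p = 0.00168, edgeR). It was 9.40-fold lower with sulodexide than with vehicle (log2 -3.23, SE 0.74, adjusted p = 0.0418, edgeR), and this did not pass in 9 of 18 alternatives (adjusted p by edgeR from 0.0505 to 0.139). With sulodexide, 8 counts stood against 0 in control, at least a 2.03-fold difference that did not pass (adjusted p = 0.122, edgeR). Bounds and intervals of counts cover counting error only.

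Itgb8 (ENSMUSG00000025321, chromosome 12, 119158022 to 119238802) encodes the beta-8 chain. It had 9, 5 and 1 counts with sulodexide, 33, 30 and 46 with vehicle and 10, 10 and 7 in control, or 0.533, 0.290 and 0.0658 CPM, 1.77, 1.84 and 2.67 CPM, and 0.727, 0.861 and 0.571 CPM in those groups. The sulodexide libraries were below both the vehicle and the control libraries. It was 6.79-fold lower with sulodexide than with vehicle (log2 -2.76, SE 0.51, adjusted p = 0.0156, edgeR) and 2.89-fold higher with vehicle than in control (log2 1.53, SE 0.47, adjusted p = 0.0214, edgeR). The fall did not pass without sulodexide library 2 or vehicle library 3 (adjusted p = 0.0674 and 0.0669, edgeR), and the rise did not pass without vehicle library 3 or control library 1 or 3 (adjusted p by edgeR from 0.0653 to 0.0838). Below control, Itgb8 with sulodexide did not pass (log2 -1.23, 95% interval -2.48 to 0.01, adjusted p = 0.140, edgeR). The log2 ratio of Itgb8 to Itgav was 2.59 lower with sulodexide than with vehicle and 2.07 higher with vehicle than in control (exact permutation p = 0.1 for each).

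**Figure D3:**
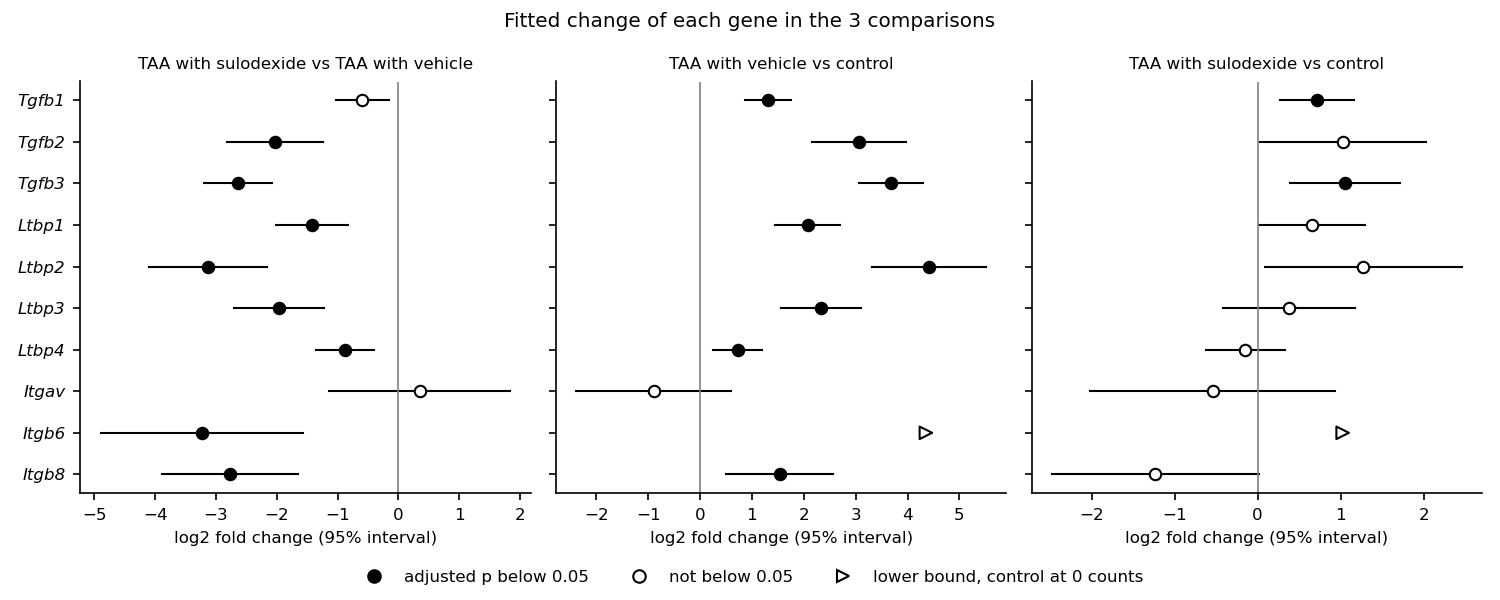
Fitted log2 fold change of each of the 10 genes with its 95% interval, for TAA with sulodexide against TAA with vehicle, TAA with vehicle against control and TAA with sulodexide against control, each panel with its own axis. A filled circle means an adjusted p below 0.05 by edgeR, and for Itgb6 against control an open triangle marks the lower bound from a floor of 3 counts. For sulodexide against vehicle 8 genes are below 0 and filled, and for vehicle against control 8 genes are above 0 and filled, beside the bound of Itgb6.

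Per unit of gene length, Ltbp4 had the highest mean level of the 10 genes in each group, at 3.60 FPKM with sulodexide, 7.22 FPKM with vehicle and 3.34 FPKM in control. With sulodexide Tgfb1 came next at 2.70 FPKM, and its libraries overlapped with those of Ltbp4. With vehicle the next were Tgfb3 at 4.59 FPKM and Tgfb1 at 4.46 FPKM, which overlapped with each other and lay below Ltbp4. In control the next were Tgfb1 at 1.37 FPKM and Itgav at 1.32 FPKM, which also overlapped. Itgb6 and Itgb8 were the lowest with sulodexide and with vehicle, at 0.0192 and 0.0225 FPKM with sulodexide and 0.204 and 0.173 FPKM with vehicle, and each pair overlapped. In control the lowest were Tgfb2 at 0.0350 FPKM and Itgb6, listed at 0.

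Without reference to the fitted test, 9 of 10 genes had all vehicle libraries above all control libraries, against 29.4% of all tested genes. All sulodexide libraries were below all vehicle libraries for 9, against 13.1% of all tested genes. Itgb6, Tgfb2 and Itgb8 are in both counts of 9 and passed the filter on low counts only with their vehicle libraries. Their separation from the other groups is therefore not independent of that filter. With sulodexide against control, 5 genes were above with no overlap, against 21.4% of all tested genes, and Itgb8 was below, against 20.6%.

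The genes were also compared with all others for likeness. For each of the 10, the tested genes with a mean of at least 1 CPM, 12554 in number, were ranked by the root mean square difference of log2 CPM over the 9 libraries, each gene centred on its mean. The nearest genes to Tgfb3 were Col1a2 (0.17) and Col3a1 (0.25), chains of fibrillar collagens. Nearest to Tgfb2 were Ckb and Itga8, to Ltbp3 Lama2 and Sox4, and to Ltbp2 Cx3cl1 and Mrc2, at differences between 0.18 and 0.31. Nearest to Itgb6 was Cldn7 (0.32), a tight junction gene in the list of cholangiocyte markers used here, then Tspan8 (0.36). Nearest to Itgav were Dyx1c1Ccpg1 (0.37) and Nfat5 (0.42), and nearest to Itgb8 was Anxa13 (0.42). Tgfb1 was nearest to Lpar2 and Naalad2, Ltbp1 to Adamts5 and Nptxr, and Ltbp4 to Acap3 and Jag1, at differences between 0.14 and 0.22. Among the members themselves, Tgfb2 and Ltbp3 were closest (0.34), then Tgfb1 and Ltbp4 (0.41) and Tgfb3 and Ltbp2 (0.42), of 45 pairs. These likenesses rest on the 9 libraries that the genes share.

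**Figure D4:**
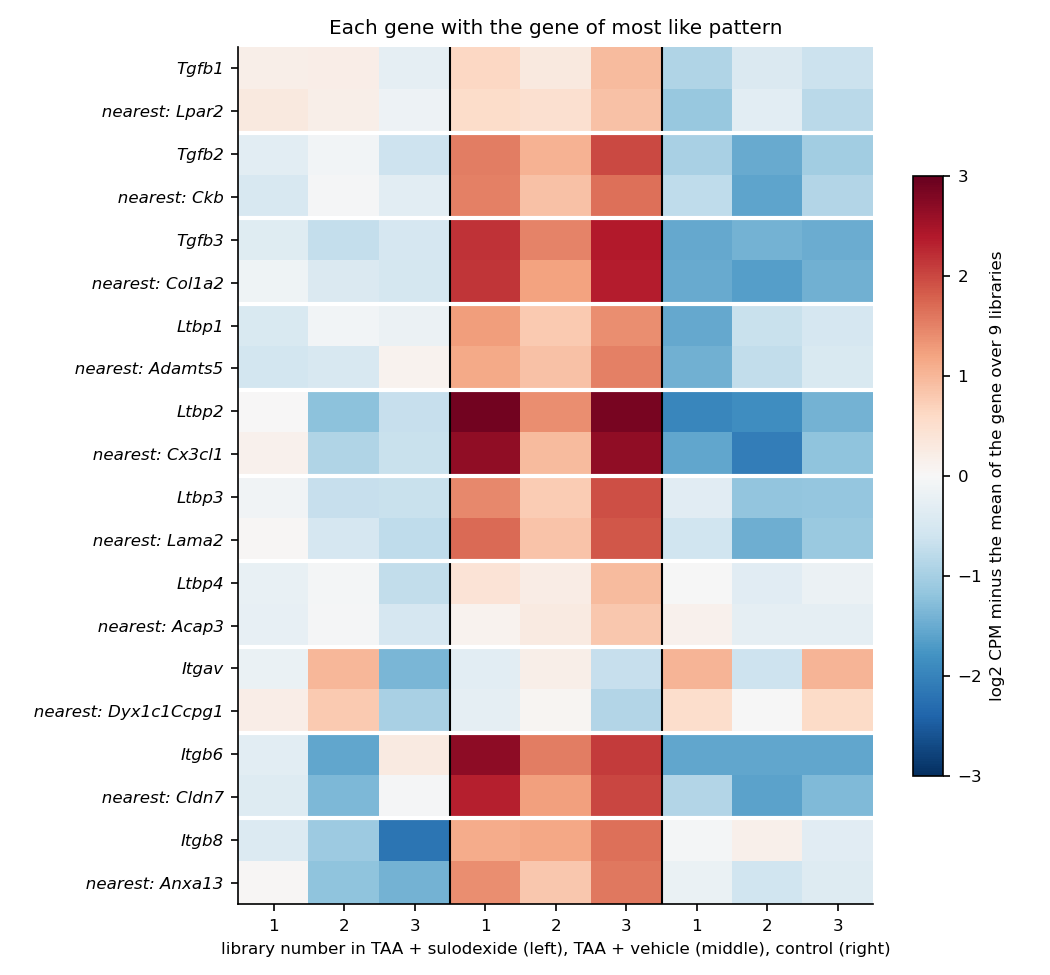
Log2 CPM minus the gene's mean over the 9 libraries, as colour, for each of the 10 genes and the gene nearest to it, with a column for each library, sulodexide first, then vehicle and control. The rows of Tgfb3 and Col1a2 differ by 0.17 in root mean square.

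Other genes of the pathway were counted by their role, from lists of 48 symbols of which 46 were tested. Ctgf and Ccn2 among these symbols are older and newer names of the same gene, which was tested as Ctgf. With sulodexide against vehicle, 13 fell and 1 rose, where 3.41% of all tested genes fell and 1.39% rose. With vehicle against control, 29 rose and 3 fell, where 23.1% of all tested genes rose and 20.4% fell. With sulodexide against control, 12 rose and 1 fell, where 11.2% of all tested genes rose and 11.4% fell. These shares are also the background of each count by role that follows. Of 12 other alpha-v partners and activators, 3 fell with sulodexide against vehicle, namely Mmp2, a matrix metalloproteinase that can release latent complexes, Thbs1, the thrombospondin that activates latent TGF-beta, and Itgb5, the beta-5 partner of alpha-v. Mmp2 had 7.34, 4.29 and 4.61 CPM with sulodexide and 41.5, 20.8 and 61.0 CPM with vehicle (log2 -2.92, adjusted p = 0.00735, edgeR). Thbs1 had 5.15, 4.00 and 2.17 CPM with sulodexide and 24.6, 10.4 and 16.6 CPM with vehicle (log2 -2.18, adjusted p = 0.0127, edgeR). The fall of Itgb5 (log2 -0.73) was lost in 3 of 18 alternatives, and that of Thbs1 in 1. With vehicle against control 6 of the 12 rose and 1 fell, the rises including Itgb5 (log2 1.35), Mmp2 (4.58), Thbs1 (3.67) and Mmp9, another metalloproteinase (3.00). With sulodexide against control 4 rose and 1 fell, the rises again including Itgb5 (log2 0.62), Mmp2 (1.66) and Thbs1 (1.49), of which Mmp2 lost the call in 4 of 18 alternatives and Thbs1 in 6, and both did so without sulodexide library 1 and without each control library in turn. The gene that fell in both was Plg, the liver-made zymogen of plasmin, with log2 changes of -0.81 (adjusted p = 0.00151, edgeR) with vehicle and -0.51 (adjusted p = 0.0313, edgeR) with sulodexide, each against control. The change of Plg with sulodexide lost the call in 7 of 18 alternatives, among them those without sulodexide library 1 or 3 or control library 2 or 3, and with total counts it was -0.25 (adjusted p = 0.149, edgeR).

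Matrix partners of latent complexes and traps of the ligand fell in 4 of 8 cases with sulodexide against vehicle and rose in 1. Fbn1, the fibrillin that holds latent complexes, fell (log2 -1.65, adjusted p = 0.0102, edgeR), as did Emilin1, an inhibitor of TGF-beta processing (log2 -1.25, adjusted p = 0.00621, edgeR), Bgn, a proteoglycan that binds the ligand (log2 -1.11, adjusted p = 0.0269, edgeR), and Fbn2, another fibrillin (log2 -4.81, adjusted p = 0.00532, edgeR). Fbn2 had 0.237, 0.174 and 0.0658 CPM with sulodexide and 0.0727, 0 and 0 CPM in control. It passed the filter on low counts through its vehicle libraries alone, so that it could only be tested because it was higher there. The fall of Bgn did not pass in 6 of 18 alternatives (adjusted p by edgeR up to 0.102), among them those without vehicle library 1 or 3 and all 3 that left out a sulodexide library. Ecm1 rose in that comparison (log2 0.54, adjusted p = 0.0471, edgeR), a call that was lost in 14 of 18 alternatives. With vehicle against control, Fbn2 had 250 counts against 1, a ratio of 180 after scaling to library size, with a 95% interval of 32.1 to 7160. In that comparison 5 of 8 rose and 1 fell, and Emilin1 (log2 1.96), Fbn1 (2.44) and Bgn (1.41) were among the rises. With sulodexide against control, Emilin1 rose (log2 0.71, adjusted p = 0.0119, edgeR), a call that was lost without control library 1. Ecm1, which keeps latent TGF-beta inactive in liver, fell with vehicle against control (log2 -0.49, adjusted p = 0.0135, edgeR), a call that was lost in 4 of 18 alternatives. With total counts its log2 change was -0.092 (adjusted p = 0.552, edgeR). With limma on log2(FPKM + 0.1) it was -0.095 (adjusted p = 0.523).

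Receptors and SMAD proteins carry the signal into the cell. Of 5 receptors and co-receptors, 0 rose or fell with sulodexide against vehicle, with 0 at an unadjusted p below 0.05 and 0 by DESeq2 or limma. Tgfbr2, the type II receptor, rose with vehicle against control (log2 1.13, adjusted p = 0.000611, edgeR) and with sulodexide against control (log2 0.75, adjusted p = 0.0127, edgeR). The rise of Tgfbr2 with sulodexide was lost without control library 2. Acvrl1, a type I receptor of endothelium, rose with vehicle against control (log2 1.07, adjusted p = 0.0124, edgeR). That call was lost without vehicle library 1 or control library 1. Of 3 SMAD transducers, Smad3 rose with vehicle against control (log2 0.75, adjusted p = 0.00229, edgeR) and with sulodexide against control (log2 0.55, adjusted p = 0.0226, edgeR). Its rise with sulodexide was lost in 3 of 18 alternatives, without sulodexide library 2 or control library 1 or 2. Among 9 SMAD inhibitors and feedback genes, Pmepa1, which sequesters SMADs, fell with sulodexide against vehicle (log2 -2.03, adjusted p = 0.0144, edgeR). The call of Pmepa1 was lost without sulodexide library 2 or 3 or vehicle library 3. Tgif1, a corepressor, fell in the same comparison (log2 -0.51, adjusted p = 0.0419, edgeR), and that call was lost in 12 of 18 alternatives. With vehicle against control 6 of the 9 rose, among them Tgif1 (log2 0.80), Pmepa1 (2.07) and Smad6, an inhibitory SMAD (0.99, lost without control library 3). Skil, another corepressor of SMADs, fell there (log2 -1.25, adjusted p = 0.0118, edgeR), but not with total counts (log2 -0.85, adjusted p = 0.0504, edgeR) or limma (-0.74, adjusted p = 0.0608).

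Target genes of the pathway fell in 4 of 9 cases with sulodexide against vehicle, and all 9 rose with vehicle against control. Col1a1 and Col1a2 had 18.8, 8.70 and 9.87 CPM and 22.9, 18.4 and 17.4 CPM with sulodexide, and 114.8, 54.7 and 136.3 CPM and 111.9, 57.7 and 128.6 CPM with vehicle. The falls were log2 -3.03 for Col1a1 (adjusted p = 0.0087, edgeR) and -2.34 for Col1a2 (adjusted p = 0.00532, edgeR). Ctgf, listed here under its older symbol, fell (log2 -1.45, adjusted p = 0.0162, edgeR), as did Lox, which cross-links collagen (log2 -3.92, adjusted p = 0.0153, edgeR). The fall of Ctgf was lost without sulodexide library 2. Lox had 0.592, 0.058 and 0.0658 CPM with sulodexide and 0.218, 0 and 0 CPM in control. Like Fbn2, it passed the filter on low counts through its vehicle libraries alone. The fall of Lox was lost without sulodexide library 2 or vehicle library 3. With vehicle against control the rises included Col1a2 (log2 3.53), Col1a1 (4.91) and Tgfbi, a matrix protein (1.11). With sulodexide against control 5 of 9 rose, among them Col1a2 (log2 1.19), Tgfbi (0.62) and Col1a1 (1.88). Col1a2, Tgfbi and Col1a1 each lost that call in 1 of 18 alternatives.

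**Figure D5:**
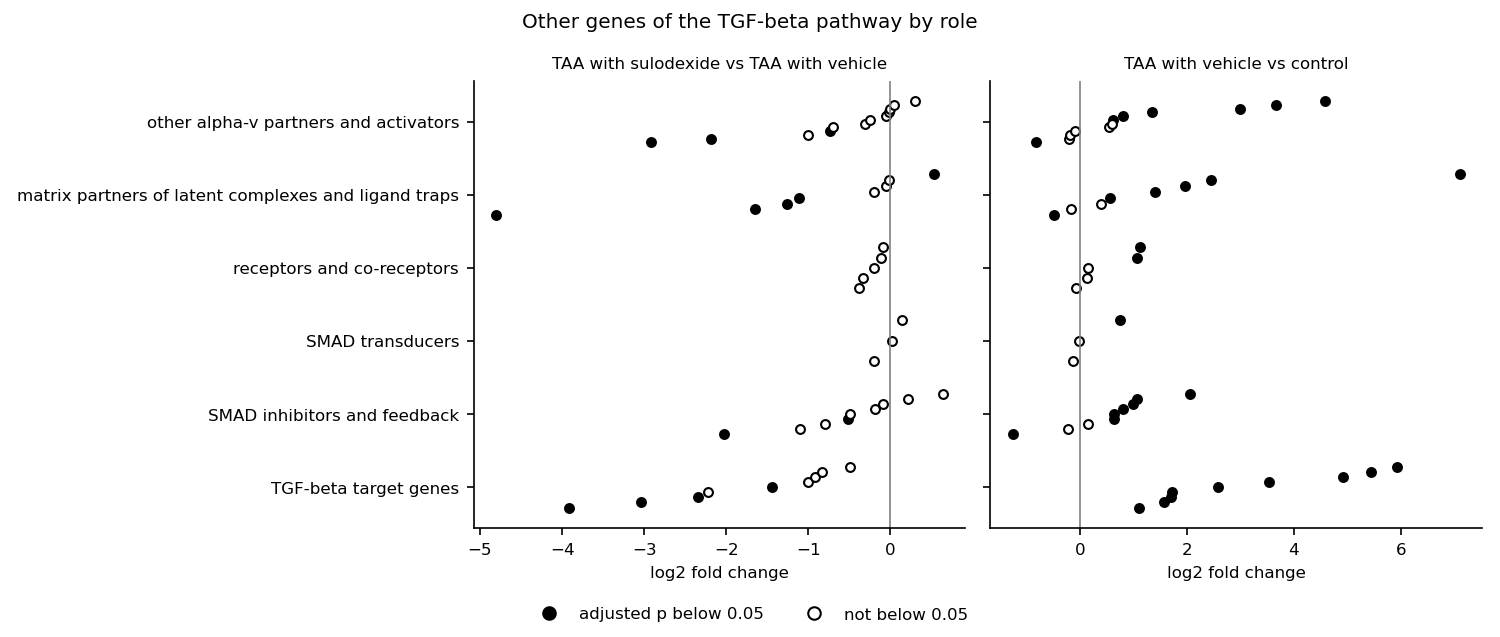
Fitted log2 fold change of the 46 other pathway genes tested, grouped by role, for TAA with sulodexide against TAA with vehicle and for TAA with vehicle against control, with a filled circle where the adjusted p by edgeR is below 0.05. For sulodexide against vehicle all 9 target genes and 7 of 8 matrix partners lie below 0, and the 5 receptors lie between -0.38 and -0.09. The circle farthest right is the fitted value of Fbn2, which had 1 count in control.

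Lists of cell type markers were read beside these results, with the background shares given above for each comparison. Of 7 cholangiocyte markers, 6 fell with sulodexide against vehicle and 7 rose with vehicle against control. Without sulodexide library 3 or vehicle library 3, 1 fell, and without sulodexide library 2 or vehicle library 1, 2 fell. Fitting only the 2 groups compared left 3. Cftr of this list passed the filter on low counts through its vehicle libraries alone. The summed level of the 7 was 42.4 to 108 CPM with sulodexide, 205 to 495 CPM with vehicle and 33.3 to 47.5 CPM in control. Every marker was detected in each group. Of that sum, Spp1 alone gave 90.9, 35.9 and 56.7 CPM with sulodexide. It gave 428.9, 172.8 and 391.5 CPM with vehicle and 39.1, 27.1 and 38.45 CPM in control. Of 9 stellate cell and myofibroblast markers, 4 fell with sulodexide against vehicle and 7 rose with vehicle against control, with a summed level of 122 to 155 CPM with sulodexide, 205 to 332 CPM with vehicle and 88.3 to 105 CPM in control. Col1a1 and Acta2 of that list are also among the target genes. Of those sums, Col1a1 alone gave 18.8, 8.70 and 9.87 CPM with sulodexide and 114.8, 54.7 and 136.3 CPM with vehicle. Of 7 tested portal fibroblast and mesothelial markers, 1 fell with sulodexide against vehicle and 5 rose with vehicle against control. These markers summed to 13.5 to 14.6 CPM with sulodexide, 14.5 to 27.3 CPM with vehicle and 7.63 to 9.90 CPM in control. Msln of that list, like Cftr, passed the filter on low counts through its vehicle libraries alone. Wt1 was at 0 in the control group, and the other markers of the last 2 lists were detected in each group. Vehicle library 2 had the lowest sum of its group for these 3 lists and for the 4 lists that follow. Of 8 macrophage and monocyte markers, 1 fell with sulodexide against vehicle, Cx3cr1 (log2 -1.94, adjusted p = 0.0258, edgeR), and 7 rose with vehicle against control. They summed to 168 to 372 CPM with sulodexide, 171 to 295 CPM with vehicle and 106 to 133 CPM in control. No marker of this list fell when any sulodexide library, vehicle library 1 or vehicle library 3 was left out. Of 7 endothelial markers, 1 fell with sulodexide against vehicle, Cd34 (log2 -2.09, adjusted p = 0.00532, edgeR), and with vehicle against control 1 rose, again Cd34, and 1 fell. They summed to 171 to 239 CPM with sulodexide, 167 to 206 CPM with vehicle and 163 to 212 CPM in control. Of 6 T cell markers, 0 fell with sulodexide against vehicle by edgeR, with 1 at an unadjusted p below 0.05 and 0 by DESeq2 or limma, and 5 rose with vehicle against control. They summed to 8.70 to 14.6 CPM with sulodexide, 8.35 to 32.4 CPM with vehicle and 5.89 to 7.02 CPM in control, and platelet and megakaryocyte markers, 2 of them tested and 1 higher with vehicle than in control, to 4.20 to 5.26, 5.04 to 6.85 and 2.24 to 3.63 CPM in those groups. The part of these cells in the results on the ligands, binders and integrins was not tested.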

How the data were processed

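Total RNA of mouse livers was made into mRNA libraries, per the labels' protocols. The authors deposited counts per gene and FPKM values for 9 libraries, and both were taken unchanged. HISAT2 2.0.4 and StringTie 1.3.0 are named in the submitters' processing notes, with the builds mm10 and GRCm38.p4. Neither the counting program nor the use of strand is given there. Each FPKM that the authors deposited was checked against count, length and library total, and 150383 values differed by at most 0.0835%.

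Of 34745 rows, 14460 had 0 counts throughout. Genes kept by filterByExpr (minimum count 10), 13701 in number, were fitted over all 9 libraries with edgeR 4.0.16 in R 4.3.3 (TMM factors, robust quasi-likelihood F-test, no block, Benjamini-Hochberg threshold 0.05). DESeq2 1.42.0 and limma 3.58.1 on log2(FPKM + 0.1) served as alternatives, with other scaling, no low-count filter, a replicate block and each library left out. Ratios were log2 of FPKM with 0.01 added and were tested by 2-sided exact permutation. Zero counts were bounded at a floor of 3 counts over the group, and ratios with 1 to 3 counts have 95% exact intervals. The fit was tested on simulated data.

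The genes, the pathway and marker lists and the rule for naming other genes (up to 4 per role and comparison by p, those against their role, and the 2 nearest genes) were chosen with earlier results of these data known. Promoters came from RefSeq (GRCm38.p6), and gene overlaps from GENCODE M21. Some results that these rules would name are not reported here. Proteins, transcripts and reads were not analysed here.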

Additional observations from a re-analysis of the deposited data

How the results depend on the processing

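Over the settings tried, 252 counts of calls stayed within 1.5 times the reported count and 72 did not. Scaling by total counts shifted the median of all tested genes by -0.14 for sulodexide against vehicle, 0.26 for sulodexide against control and 0.40 for vehicle against control. It left 91 genes higher in the first comparison, gave 3315 higher and 757 lower in the second and 5756 higher and 1156 lower in the third. With it 4 of the 10 genes rose with sulodexide against control, other pathway genes numbered 0 higher with sulodexide against vehicle, 20 higher and 0 lower with sulodexide against control and 1 lower with vehicle against control. Limma on log2(FPKM + 0.1) gave 93 higher and 714 lower, 3201 and 768, and 5747 and 1161 genes in the 3 comparisons, with other pathway genes 0 higher, 19 higher and 0 lower, and 1 lower. With log2(FPKM + 1) these were 90 and 870, 2648 and 750, and 5645 and 1165 genes, with other pathway genes 0 higher, 0 lower and 1 lower, and 1 of the 10 genes rose with sulodexide against control. DESeq2 called 366 higher and 726 lower with sulodexide against vehicle. Fitting only the 2 groups compared gave 84 higher, 302 lower and 0 other pathway genes higher, and upper quartile factors also gave 0 of the last.

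Leaving out a library gave, for sulodexide against vehicle, 44 to 189 genes higher and 95 to 670 lower, 2 to 8 of the 10 genes lower, and other pathway genes 0 higher and 6 to 15 lower. For sulodexide against control it gave 928 to 1621 genes higher, 0 to 3 of the 10 genes higher, and other pathway genes 5 to 14 higher and 0 to 1 lower.

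Signs turned for small differences. Ltbp4 with sulodexide against control became 0.11 with total counts and 0.087 and 0.072 with limma, and ran from -0.29 to 0.015 when a library was left out. Itgav with sulodexide against vehicle became -0.031 with limma and ran from -0.44 to 0.76 when a library was left out. A pseudocount of 0.1 turned the log2 ratios of Tgfb2 to Tgfb1 (-0.45) and of Itgb8 to Itgav (0.11) with sulodexide against control. In that comparison, leaving out a library gave -0.14 to 0.37 for Tgfb2 to Tgfb1, -0.91 to 0.15 for Itgb8 to Itgav, -0.020 to 0.79 for Ltbp2 to Ltbp1 and -0.58 to 0.35 for Ltbp3 to Ltbp1. It gave -1.35 to 0.32 for Itgb6 to Itgb8 with sulodexide against vehicle and -0.057 to 0.87 for Ltbp3 to Ltbp1 with vehicle against control. The cause was not tested.

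Libraries with the same number in different groups deviated together with r of -0.07 to 0.14, against -0.15 to 0.15 for other numbers, so the numbers were not taken to pair the libraries. With the replicate number as a block, 7 of the 10 genes fell with sulodexide against vehicle, 3 rose with sulodexide against control and 9 rose with vehicle against control. The block brought Ltbp2 with sulodexide against control past the threshold (adjusted p = 0.0305, edgeR) and ended the call of Ltbp4 with sulodexide against vehicle (adjusted p = 0.0882, edgeR). Few counts limit Itgb6, Itgb8 and Tgfb2.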
